A study of Homo sapiens with 6 samples.

Results

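The genes described are 10 that encode secreted products of the prostate or acute-phase plasma proteins, namely ORM1, ORM2, ACPP, MSMB, AZGP1, TGM4, NPY, SPON2, PIP and CLU, out of 55765 gene symbols counted in C4-2 cells. They were chosen by name, with earlier results of the same libraries known, so their differences between SAL and DMSO are given as a description with no p-value, and nothing is read from how many of them pass a threshold. C4-2 is a castration-resistant prostate cancer (CRPC) cell line derived from LNCaP, and R1881 (methyltrienolone) is a stable synthetic androgen. Of the 6 RNA-seq libraries, 3 came from C4-2 cells given the solvent DMSO and 3 from C4-2 cells given R1881 at a supraphysiological androgen level (SAL, 1 nM), in both cases for 72 h in DMEM, after growth of all cells in medium with fetal bovine serum. The libraries are numbered 1 to 3 in each group, and libraries with the same number were compared as a pair. All values come from 1 cell line, without stroma or other epithelial cells of a prostate, and in such bulk libraries fewer cells of a type and less RNA per cell cannot be told apart.

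The luminal cells of the prostate release into the seminal fluid a mixture of proteins, among them prostatic acid phosphatase, the microseminoprotein MSMB, the zinc-binding glycoprotein AZGP1 and the coagulum cross-linking enzyme TGM4, and many of the genes behind these proteins are known to depend on androgens. Orosomucoids, the products of ORM1 and ORM2, are lipocalins known mainly as plasma proteins of the liver, where interleukin-6, interleukin-1 and glucocorticoids induce them through C/EBP, STAT3 and the glucocorticoid receptor. Clusterin, the product of CLU, is a secreted chaperone of damaged proteins that is found in seminal plasma and in blood.

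ORM1 and ORM2 lie side by side on the plus strand of chromosome 9 in GRCh37 (chr9:117085378-117088759 and chr9:117092149-117095531), each with 6 exons. Their mRNAs of 764 and 759 bases were identical at 95.9% of the 759 aligned bases, and all 31 mismatches were in the 603 aligned coding bases. Reads that map to more than one place were not counted, and the read length after trimming is not given in the sources used here. For an assumed length of 70 bases, 42.6% of the windows of the ORM1 mRNA occur in the ORM2 mRNA without a mismatch, as do 42.9% of the ORM2 windows in that of ORM1. For 35 bases the shares were 57.0% and 57.4%. The counts of both genes therefore rest on the stretches in which they differ, and the levels of both are understated. The stretch below is shown because reads across it tell the genes apart. It is 60 bases of exon 4 (chr9:117087079-117087138 in ORM1 and chr9:117093856-117093915 in ORM2, GRCh37, plus strand), with the 14 bases that differ in capitals.
ORM1 exon 4: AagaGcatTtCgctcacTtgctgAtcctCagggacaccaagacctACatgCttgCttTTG
ORM2 exon 4: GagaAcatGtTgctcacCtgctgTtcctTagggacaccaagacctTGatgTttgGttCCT

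The 250 bases before the start of a gene are shown for members whose counts are described below as different or as alike between SAL and DMSO, since the study compared cells with and without an androgen. Windows from RefSeq (GRCh38.p14) were used for 7 of the 10 members, and those of ORM2, MSMB and CLU were not used here. Each window of 300 bases, 250 before and 50 after the start, was searched on both strands for the palindromic element of steroid receptors (GNACA and TGTNC with 3 bases between them), its half-site TGTTCT, TTNNGNAA (C/EBP) and TTCNNNGAA (STAT). The first of these occurred in 0.390% of all 35116 windows of 27305 genes, the half-site in 14.8%, the C/EBP letters in 36.8% and the STAT letters in 7.66%. Capitals mark the matches in the following windows, which are those of ORM1 (chr9:114322848-114323097, plus strand), AZGP1 (chr7:99976032-99976281, minus strand), 1 of the 3 starts of SPON2 (chr4:1173181-1173430, minus strand) and ACPP (chr3:132317157-132317406, plus strand).
ORM1 upstream: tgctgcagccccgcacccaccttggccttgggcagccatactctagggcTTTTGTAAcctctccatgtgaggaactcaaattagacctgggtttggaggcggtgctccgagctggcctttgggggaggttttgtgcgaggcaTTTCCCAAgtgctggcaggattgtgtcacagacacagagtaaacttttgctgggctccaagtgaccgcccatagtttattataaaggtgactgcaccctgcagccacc
AZGP1 upstream: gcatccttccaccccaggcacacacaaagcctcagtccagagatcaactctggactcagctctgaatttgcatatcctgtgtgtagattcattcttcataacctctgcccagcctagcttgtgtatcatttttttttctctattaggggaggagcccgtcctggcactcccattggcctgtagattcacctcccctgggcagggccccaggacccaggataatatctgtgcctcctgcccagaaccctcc
SPON2 upstream: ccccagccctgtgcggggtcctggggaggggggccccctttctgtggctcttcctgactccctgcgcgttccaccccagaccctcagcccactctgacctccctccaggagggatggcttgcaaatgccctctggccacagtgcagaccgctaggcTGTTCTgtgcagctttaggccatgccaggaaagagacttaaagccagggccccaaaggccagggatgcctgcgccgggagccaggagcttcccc
ACPP upstream: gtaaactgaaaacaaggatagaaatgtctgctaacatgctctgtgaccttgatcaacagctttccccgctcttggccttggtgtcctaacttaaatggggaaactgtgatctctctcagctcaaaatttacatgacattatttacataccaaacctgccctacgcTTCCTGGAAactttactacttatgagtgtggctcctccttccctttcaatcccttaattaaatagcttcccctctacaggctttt

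The ORM1 window held the C/EBP letters at 201 bases before the start and, on the other strand, at 108 bases. The SPON2 window shown held the half-site at 94 bases, another SPON2 window held the C/EBP letters at 180 bases, and the third held no match. The ACPP window held the STAT letters at 85 bases. No letters of the 4 patterns were in the AZGP1 or the NPY window. The TGM4 window held the C/EBP letters and the PIP window held the half-site, the C/EBP and the STAT letters once each. None of these windows held the whole palindromic element, which says nothing of elements farther away.

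Read counts on genes ranged from 7864471 to 11317210 in the DMSO libraries and from 9921828 to 12532355 in the SAL libraries, of which rRNA genes took 11.9% to 27.8% and were removed. Levels are given as CPM, counts relative to the library total after TMM scaling, the usual normalised read count. The luminal markers KRT8, KRT18, HOXB13, FOLH1 and FOXA1 had at least 10 counts in every library (5 of 5). Their sum was 1450 to 2165 CPM in DMSO and 1846 to 3391 CPM in SAL. The markers were unlike, with a mean of KRT8 of 156 CPM in DMSO and 823 CPM in SAL (log2 fold change 2.45). KRT18 and FOXA1 had log2 fold changes of 1.71 and 0.33, and HOXB13 and FOLH1 of -0.07 and -0.09. The leukocyte genes PTPRC, CD3D and CD3E were at 0 throughout, and the sum of the 7 leukocyte markers was 0.273 to 0.668 CPM in DMSO and 0.246 to 0.658 CPM in SAL. Of 4 basal markers, KRT5 was at 0 throughout and none had 10 counts in every library, while KRT15 had 0 counts in each DMSO library and 5, 1 and 7 in SAL. The basal sum was 0.134 to 0.372 CPM in DMSO and 0.439 to 1.11 CPM in SAL, without overlap. Of 6 hepatocyte markers, APOB was at 0 in every library and 1, TTR, had at least 10 counts in every library. The sum of the 6 was 8.15 to 29.6 CPM in DMSO and 3.84 to 7.17 CPM in SAL. Of 6 stromal markers, COL1A2 was at 0 throughout and 2 had at least 10 counts in every library, and their sum was 7.68 to 16.1 CPM in DMSO and 16.8 to 21.6 CPM in SAL. ACTA2, the smooth muscle actin in that list, had 12, 8 and 10 counts in DMSO and 85, 50 and 65 in SAL. Whether these shifts have a part in the results below was not tested.

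Of the 10 members, 5 passed the filter on low counts (ORM1, ACPP, AZGP1, SPON2 and CLU), and ORM1 passed it only through its SAL libraries. ORM2, MSMB, TGM4, NPY and PIP had too few counts. The share of all 16835 tested genes past an adjusted p of 0.05 in either direction was 20.8% (3508 genes), with 11.5% higher and 9.37% lower in SAL. Among the members ORM1, AZGP1, SPON2 and CLU passed that threshold, all higher in SAL, and ACPP did not. All 3 SAL libraries lay above all 3 DMSO libraries for ORM1, ORM2, AZGP1 and CLU, which was the case for 3.78% of all tested genes, and no member had all SAL libraries below (3.73% of all tested genes). Nothing is read from these counts, since the members were chosen with the comparison in view.

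**Figure D1:**
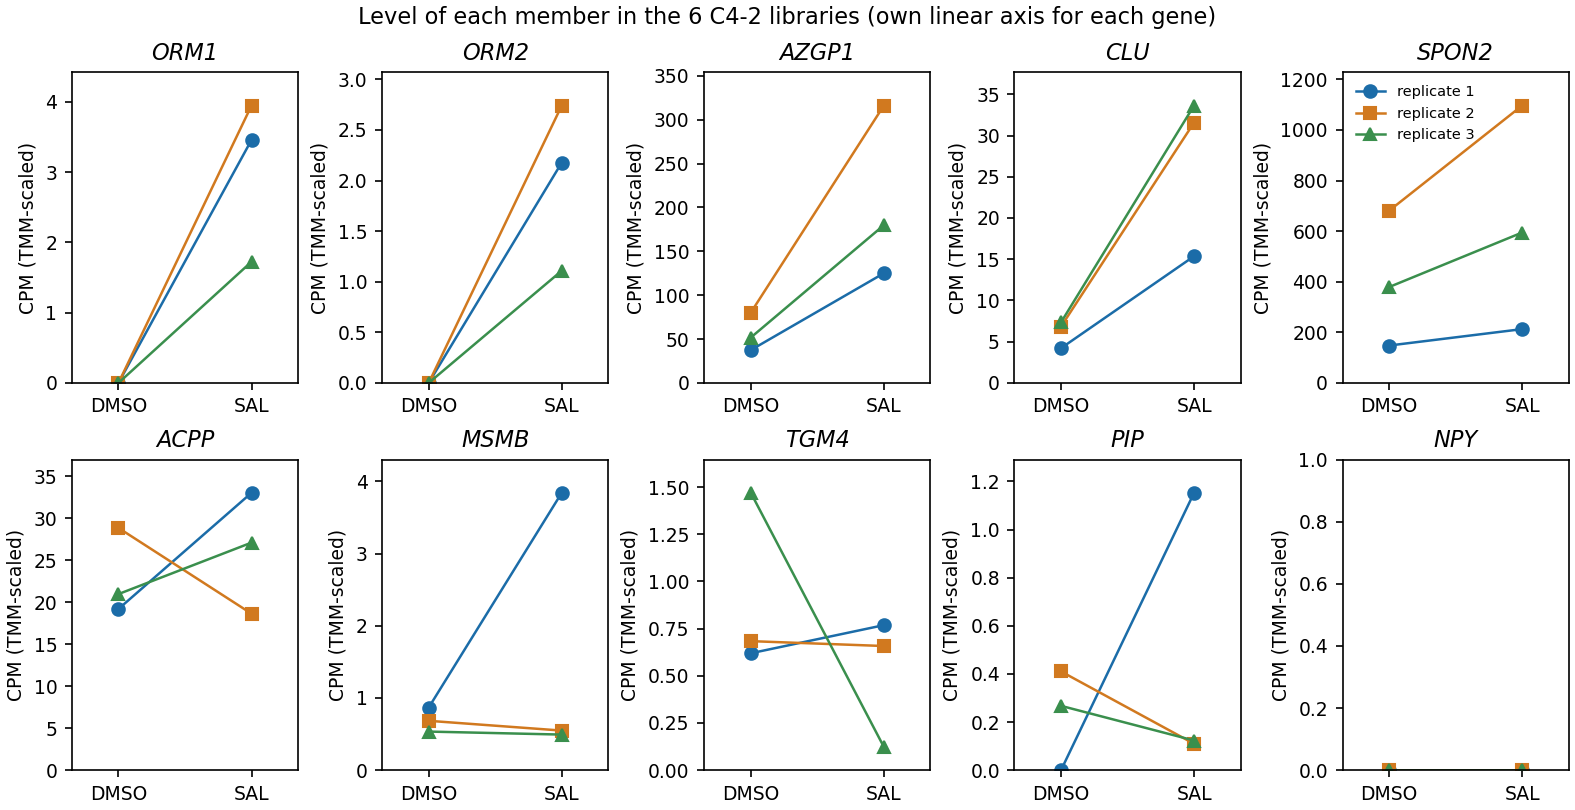
TMM-scaled CPM (y axis, linear, from 0, its own range for each gene) of the 10 members in DMSO and SAL libraries (x axis), with a line for each same-numbered pair. ORM1 and ORM2 are at 0 in DMSO and present in all 3 SAL libraries, AZGP1, CLU and SPON2 have 3 ascending lines, and the lines of ACPP cross.

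Among the acute-phase members, ORM1 had 0 counts in each of the 3 DMSO libraries and 27, 36 and 14 in SAL replicates 1 to 3. ORM2 had 0 counts in each DMSO library as well and 17, 25 and 9 counts in the SAL libraries. Both orosomucoid genes thus had reads only with R1881, and in both the highest library was SAL replicate 2 and the lowest SAL replicate 3.

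A DMSO library with 0 counts could hold up to 3 counts of a gene, which is 0.372 to 0.410 CPM. Against that floor in each DMSO library, ORM1 with 3.04 ± 1.17 CPM in SAL (SD, n = 3) was at least 7.72-fold higher, and ORM2 with 2.01 ± 0.829 CPM (SD, n = 3) at least 5.10-fold higher. The lower bounds by pair were 9.30, 9.62 and 4.30 for ORM1 and 5.86, 6.68 and 2.77 for ORM2. The bounds cover only the counting error of the DMSO zeros. The SAL counts were taken as they are, without their own counting error, so the true differences could be smaller than these bounds. ORM1 was a low gene, at position 15855 of 16835 tested genes ordered by mean CPM over DMSO and SAL libraries together. That mean includes its DMSO libraries at 0, and the position in SAL alone was not computed. The bases in which the genes differ assigned 38.6% of the orosomucoid reads to ORM2 in SAL replicate 1 (95% exact binomial interval 24.4 to 54.5%), 41.0% in replicate 2 (28.6 to 54.3%) and 39.1% in replicate 3 (19.7 to 61.5%). The intervals overlap, and at 23 to 61 reads per library a difference in this share between libraries was not detectable.

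CLU, unlike the orosomucoid genes, was present without R1881. CLU lies on the minus strand of chromosome 8 (chr8:27454434-27472217, GRCh37, 9 exons). DMSO replicates 1 to 3 gave 34, 50 and 55 reads of CLU, and the SAL libraries with these numbers gave 120, 288 and 273. Every SAL library was thus above every DMSO library, and replicate 1 was the lowest of both groups. On the CPM scale CLU was at 6.13 ± 1.68 in DMSO and 26.9 ± 10.01 in SAL (SD, n = 3 each), a log2 fold change of 2.11 (SE 0.17), and the pairs differed by 1.81, 2.17 and 2.16 on the log2 scale.

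AZGP1, which encodes zinc-alpha-2-glycoprotein, a lipid-mobilising protein of seminal fluid and plasma with an MHC class I fold, lies on the minus strand of chromosome 7 (chr7:99564343-99573665, GRCh37, 4 exons). It had 302, 586 and 387 counts in DMSO and 976, 2883 and 1459 counts in SAL. In CPM this was 37.4, 80.1 and 51.7 in DMSO and 125, 316 and 180 in SAL. The lowest SAL library was above the highest DMSO library, and in both groups replicate 2 was highest and replicate 1 lowest. The log2 fold change was 1.84 (SE 0.10), with 1.73, 1.98 and 1.79 in the pairs, and the mean level went from 56.4 ± 21.7 to 207 ± 98.4 CPM (SD, n = 3 each). The pseudogene AZGP1P1, which resembles part of AZGP1, was higher in SAL too, with 4.04 ± 0.605 CPM in DMSO and 10.9 ± 1.40 CPM in SAL (SD, n = 3 each, log2 fold change 1.43, SE 0.21, adjusted p = 1.52e-04, edgeR's quasi-likelihood test). How reads were split between AZGP1 and AZGP1P1 is uncertain.

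SPON2 encodes spondin 2, a secreted extracellular matrix protein of prostate and other epithelia, and lies on the minus strand of chromosome 4 (chr4:1160720-1202750, GRCh37, 6 exons). It had 1193, 4979 and 2837 counts in DMSO and 1661, 10002 and 4826 counts in SAL. In CPM it was at 148, 681 and 379 in DMSO and at 213, 1097 and 595 in SAL. The groups overlapped, since SAL replicate 1 was below DMSO replicates 2 and 3, but each SAL library was above the DMSO library of its number. The pairs differed by 0.52, 0.69 and 0.65 on the log2 scale and the fitted log2 fold change was 0.62 (SE 0.09). The spread between replicate numbers was larger than that difference, as the highest SPON2 library was 4.61 times the lowest in DMSO and 5.16 times in SAL.

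**Figure D2:**
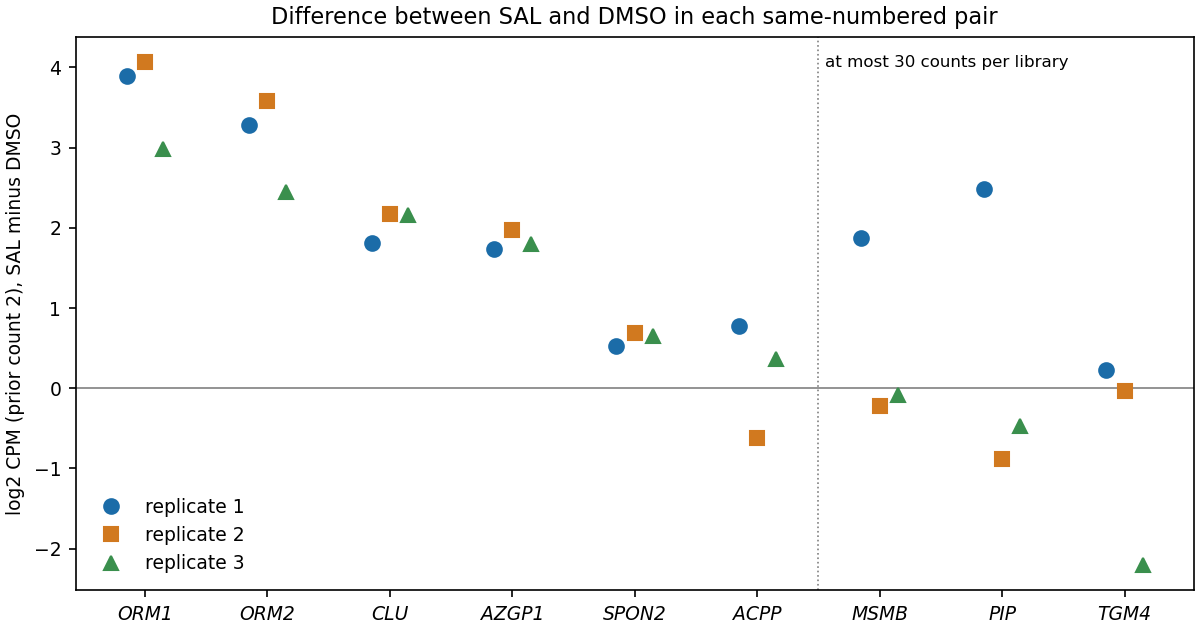
Log2 CPM of the SAL library minus that of the DMSO library with the same number (y axis, prior count 2) for 9 members (x axis), with a symbol for each replicate number. AZGP1, CLU and SPON2 have 3 close points above 0, ACPP has points on both sides of 0, and the points of ORM1 and ORM2 depend on the prior count since their DMSO libraries are at 0. NPY, at 0 in all libraries, is not drawn.

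ACPP, the gene of prostatic acid phosphatase (ACP3 in current nomenclature), lies on the plus strand of chromosome 3 (chr3:132036213-132087146, GRCh37, 10 exons). It had 155, 211 and 157 counts in DMSO and 258, 170 and 220 counts in SAL. The groups overlapped, with the lowest CPM of all 6 libraries in SAL replicate 2 (18.6) and the highest in SAL replicate 1 (33.0). The pairs differed by 0.78, -0.62 and 0.37 on the log2 scale, and the log2 fold change was 0.18 (SE 0.26). This value hung on single pairs, being 0.56 without replicate 2, and -0.13 without replicate 1.

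The other secreted proteins of the prostate had few reads. MSMB, which encodes the microseminoprotein, one of the most abundant proteins of seminal plasma, had 7, 5 and 4 counts in DMSO and 30, 5 and 4 counts in SAL. Only SAL replicate 1 stood above the other libraries, and replicates 2 and 3 had the same counts with and without R1881. PIP, the gene of prolactin-induced protein, an androgen-induced protein of breast cells, had 0, 3 and 2 counts in DMSO and 9, 1 and 1 counts in SAL.

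For PIP too, the highest library was SAL replicate 1, and the groups overlapped. TGM4, the prostate transglutaminase that cross-links semenogelins, had 5, 5 and 11 counts in DMSO and 6, 6 and 1 counts in SAL, with no common direction of the pairs. NPY, the neuropeptide Y gene, had 0 counts in all 6 libraries, which allows up to 0.329 to 0.410 CPM per library. For NPY a difference between SAL and DMSO was not detectable at this depth. For MSMB, PIP and TGM4 the counts were low and the pairs disagreed, so no common difference was seen.

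Divided by the length of the canonical mRNA in kb, so that genes can be compared, SPON2 had the highest level, with 93.6 to 431 CPM per kb in DMSO and 135 to 695 in SAL. AZGP1 followed with 31.7 to 67.8 CPM per kb in DMSO and 106 to 268 in SAL, so that its range overlapped that of SPON2 in SAL but not in DMSO. In DMSO, ACPP (6.05 to 9.09 CPM per kb) lay above CLU (1.53 to 2.67), whereas in SAL the ranges of CLU (5.59 to 12.2) and ACPP (5.87 to 10.4) overlapped. ORM1 (2.26 to 5.17 CPM per kb in SAL), MSMB (1.01 to 7.91) and ORM2 (1.46 to 3.61) overlapped each other, and PIP and TGM4 were lower on average, at 0.799 and 0.152 CPM per kb in SAL. The reads were counted over all annotated exons. With the length of all exons in place of the canonical mRNA, ACPP (6.13 CPM per kb) came before CLU (4.27) in the SAL means. ORM2 (2.65) then came before MSMB (1.76). The ranges of SPON2 and AZGP1 then overlapped in DMSO as well, so their separation there depends on the length used.

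The libraries of the tested members with reads in both groups differed by treatment or by replicate number in unlike shares. Of the sum of squares of log2 CPM over the 6 libraries, treatment took 84.8% for CLU and 77.0% for AZGP1, but 9.78% for SPON2, where the replicate number took 90.1%. For ACPP treatment took 7.74% and the replicate number 2.52%, and the remaining 89.7% was disagreement between the pairs. The same remainder was 0.568% for CLU, 0.245% for AZGP1 and 0.123% for SPON2.

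**Figure D3:**
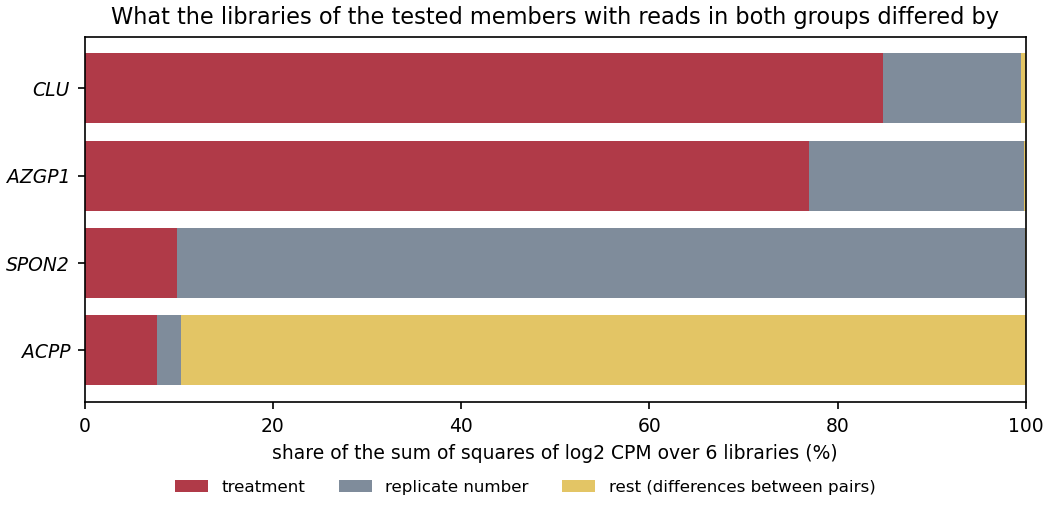
Share of the sum of squares of log2 CPM over the 6 libraries (x axis, %, bars from 0 to 100) for the 4 tested members with reads in both groups (y axis), divided into treatment, replicate number and the rest. ORM1 is left out because its DMSO libraries are at 0. Treatment has the larger share for CLU and AZGP1, the replicate number for SPON2, and the rest for ACPP.

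Over the 6 libraries, which share the treatment and the replicate numbers, Pearson's r of log2 CPM was 0.95 between AZGP1 and CLU, 0.72 between AZGP1 and SPON2 and 0.61 between SPON2 and CLU, while ACPP had r from -0.09 to 0.15 with these 3 members. Among 12293 tested genes with a mean of at least 5 CPM, the pattern of AZGP1 was most like those of MICALL2 and RASSF3 (both r = 0.99). For CLU the closest were SLC35F2 and CHRNA2 (both r = 0.99), for SPON2 they were PINK1 and KIAA1522 (r = 0.9999 and 0.9991), and for ACPP they were NME5 (r = 0.94) and TMEM170A (r = 0.92). With 6 libraries and so many genes compared these are descriptions.

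Of 32 other acute-phase protein genes, 4 were tested, and 2 of them fell and none rose (background 20.8% of all tested genes called). Their median was -1.02 on the log2 scale, against -0.0011 over all tested genes. TTR, transthyretin, a plasma protein that decreases in the acute phase, had 218, 65 and 44 counts in DMSO and 41, 28 and 35 counts in SAL. All SAL libraries were below the DMSO libraries on the CPM scale (log2 fold change -1.56, SE 0.31, adjusted p = 0.00475), and DMSO replicate 1 stood above the others. Without replicate 1 the log2 fold change of TTR was -0.997, and without replicate 2 it was -1.63 and no longer past the threshold. FN1, fibronectin, fell in each pair, from 2780 ± 1940 to 1184 ± 766 CPM (SD, n = 3 each, log2 fold change -1.13, SE 0.11, adjusted p = 1.87e-06). CP and CFB did not pass the threshold.

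The other 28 acute-phase genes were below the filter. Of the 32, 19 had at most 3 counts in every library, among them CRP, SAA2, FGB and FGG, and 7 were at 0 throughout. No other gene of the list was at 0 in DMSO with at least 9 counts in each SAL library, a limit taken from the lowest ORM2 count. Over all 55242 genes outside rRNA only 6 met that limit, ORM1 and ORM2 among them, so nothing is read from this absence.

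Of 26 further genes of prostatic secretion, 14 were tested, of which 8 rose and 1 fell (11.5% and 9.37% of all tested genes). The median over the 14 was 0.46 on the log2 scale. TMPRSS2, a transmembrane serine protease shed into seminal fluid, rose from 181 ± 135 to 707 ± 395 CPM (SD, n = 3 each, log2 fold change 2.07, SE 0.11, adjusted p = 9.14e-09). KLK3, which encodes prostate-specific antigen, rose from 800 ± 347 to 1809 ± 630 CPM (log2 fold change 1.21, SE 0.10, adjusted p = 3.33e-07). GDF15, a stress-responsive cytokine, rose by 1.41 (SE 0.15, adjusted p = 7.65e-05) and ZG16B, a lectin-like secreted protein, by 1.19 (SE 0.13, adjusted p = 1.64e-05) on the log2 scale. Of the 4 tested kallikreins 3 rose. The semenogelins SEMG1 and SEMG2, substrates of TGM4, had at most 7 and 2 counts in any library. Some of these genes, such as KLK3 and TMPRSS2, are textbook androgen-induced genes and were listed with that in mind, so their direction is no independent evidence.

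**Figure D4:**
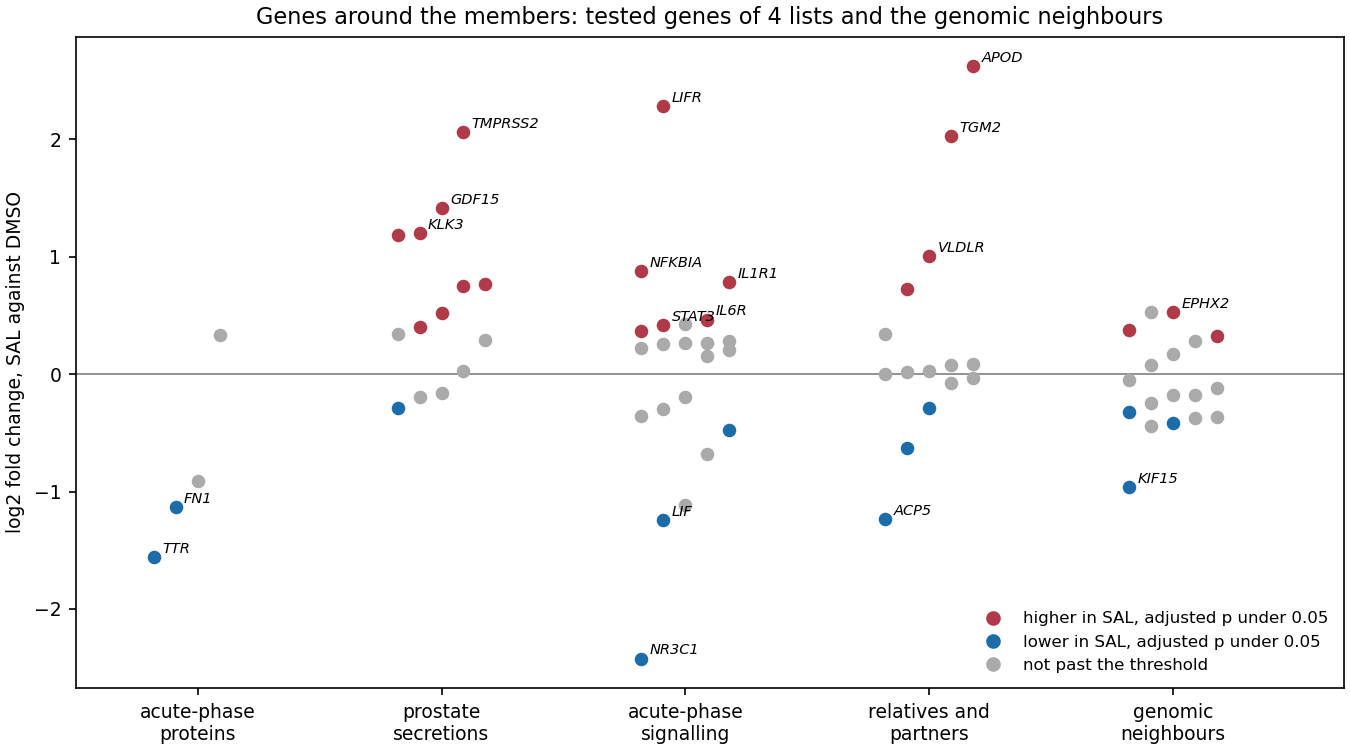
Log2 fold change of SAL against DMSO (y axis) for the tested genes of 4 lists and for the genomic neighbours of the members (x axis, points spread sideways for legibility), coloured by direction where the adjusted p was under 0.05. The called acute-phase genes lie below 0 and 8 of the 9 called secretion genes above 0, while the other columns have called genes on both sides.

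The signals that control orosomucoid genes in the liver were described by 28 genes, of which 22 were tested. Of these, 6 rose and 3 fell (11.5% and 9.37% of all tested genes), and the median over the 22 was 0.24 on the log2 scale. The ligands IL6, TNF and OSM had at most 1 count in any library. IL1A had 30, 4 and 33 counts in DMSO and 12, 5 and 14 in SAL (log2 fold change -1.12, SE 0.38, adjusted p = 0.0503), and it passed the threshold without replicate 2 (-1.32) and with DESeq2 size factors (-1.12). IL1B had 32, 7 and 21 counts in DMSO and 15, 5 and 19 in SAL (log2 fold change -0.68, SE 0.36, adjusted p = 0.217). For both interleukin-1 genes the groups overlapped. LIF, leukemia inhibitory factor, a ligand of the IL6 family, fell by 1.24 on the log2 scale (SE 0.27, adjusted p = 0.00389), and without replicate 3 it did not pass the threshold.

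Among the 6 tested receptors 4 rose (11.5% of all tested genes). LIFR, the receptor of LIF, had 788, 499 and 859 counts in DMSO and 4491, 2221 and 5055 counts in SAL. Its SAL libraries were above all DMSO libraries (log2 fold change 2.29, SE 0.13, adjusted p = 1.04e-07). IL6R, the interleukin-6 receptor, rose by 0.47 (SE 0.09, adjusted p = 0.00177), and STAT3, the transcription factor below it, by 0.42 (SE 0.10, adjusted p = 0.00589). Neither passed the threshold without replicate 3.

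NFKBIA, the inhibitor of NF-kappaB, rose by 0.88 on the log2 scale (SE 0.10, adjusted p = 1.12e-05). NR3C1, the glucocorticoid receptor gene, had 16, 10 and 10 counts in DMSO and 1, 4 and 2 counts in SAL. It fell from a low level (log2 fold change -2.42, SE 0.60, adjusted p = 0.00902), and the call was lost without replicate 3 and with DESeq2. CEBPB, a C/EBP factor, had a log2 fold change of -0.36 (SE 0.24, adjusted p = 0.366), and without replicate 2 it was -0.79 and past the threshold.

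Among 40 relatives and partners of the members, 15 were tested, and the median over these was 0.03 on the log2 scale. Of the 15, 4 rose and 3 fell (11.5% and 9.37% of all tested genes). DPP4, a peptidase that cleaves NPY and 1 of the 3 that fell, is also the gene that fell in the secretion list, and was named after its values were seen. Its log2 fold change was -0.29 (SE 0.10, adjusted p = 0.0434), and the call was lost without replicate 2, without replicate 3 and with DESeq2. APOD, apolipoprotein D, a lipocalin like the orosomucoids, had 6, 9 and 5 counts in DMSO and 29, 93 and 26 counts in SAL. All its SAL libraries were above the DMSO libraries (log2 fold change 2.62, SE 0.34, adjusted p = 4.49e-05). Of the 11 lipocalins listed beside the orosomucoids, APOD alone passed the filter.

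The transglutaminase TGM2, a relative of TGM4, had 13, 83 and 33 counts in DMSO and 17, 547 and 144 counts in SAL, and rose by 2.03 (SE 0.25, adjusted p = 9.47e-05). The pairs were unlike, with little difference in replicate 1. F13A1, the transglutaminase of blood clotting, was not tested, with 0, 1 and 1 counts in DMSO and 11, 5 and 11 in SAL, and was named after its values were seen. Of the 6 acid phosphatases other than ACPP, 1 rose and 1 fell (11.5% and 9.37% of all tested genes). The latter, ACP5, the tartrate-resistant acid phosphatase, had a log2 fold change of -1.24 (SE 0.39, adjusted p = 0.0375), lost without replicate 3 and with DESeq2, and without replicate 2 it was -2.003.

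VLDLR, a lipoprotein receptor that binds clusterin, rose from 14.9 ± 6.01 to 29.5 ± 8.93 CPM (SD, n = 3 each, log2 fold change 1.01, SE 0.14, adjusted p = 9.06e-05). The NPY receptors NPY1R, NPY2R and NPY5R had at most 3 counts in any library.

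The nearest tested protein-coding gene of known position on each side of the members gave 18 distinct neighbours. Their median was -0.15 on the log2 scale. Genes that do not code for protein, genes without a matched position and the members themselves were left out, so other tested genes may lie closer. Of the 18, 3 rose and 3 fell (11.5% and 9.37% of all tested genes). EPHX2, an epoxide hydrolase 51.4 kb from CLU, rose by 0.53 (SE 0.12, adjusted p = 0.00585). TRIM4, 47.2 kb from AZGP1, had a log2 fold change of 0.32 (SE 0.10, adjusted p = 0.0292), and FGFRL1, 140 kb from SPON2, had 0.37 (SE 0.10, adjusted p = 0.0117). KIF15, a mitotic kinesin 1.23 kb from TGM4, fell by 0.96 (SE 0.12, adjusted p = 2.82e-05). ZNF618, the lower neighbour of ORM1 at 267 kb, had -0.41 (SE 0.12, adjusted p = 0.0182). MRPL3, the lower neighbour of ACPP but 814 kb away, had -0.32 (SE 0.09, adjusted p = 0.0223). The calls of EPHX2, TRIM4, FGFRL1, ZNF618 and MRPL3 were each lost without replicate 3, that of EPHX2 also without replicate 2 and that of TRIM4 also without replicate 1. With DESeq2 the calls of TRIM4, ZNF618 and MRPL3 were lost. AKNA, 0.905 kb from ORM2, had a log2 fold change of -0.37 (SE 0.17, adjusted p = 0.154), CTBP1 beside SPON2 had -0.17 (SE 0.10, adjusted p = 0.275) and SCARA3 beside CLU had -0.44 (SE 0.24, adjusted p = 0.215). CTBP1 passed the threshold without replicate 1 (-0.29) and SCARA3 without replicate 2 (-0.88).

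Within 500 kb of the tested members, only tested genes with a matched position were counted, with the members left out. The called genes were 4 of 6 around ORM1 (2 higher and 2 lower in SAL) and 0 of 4 around ACPP. Around AZGP1 they were 6 of 29 (4 higher and 2 lower). Around SPON2 they were 4 of 17 (all higher) and around CLU 4 of 9 (2 higher and 2 lower). The pseudogene AZGP1P1 was not among the genes counted. The share called over all tested genes was 20.8%. CHRNA2, a subunit of the nicotinic acetylcholine receptor 117 kb from CLU, was chosen after its values were seen. It had 19, 30 and 32 counts in DMSO and 228, 649 and 661 counts in SAL. Its groups did not overlap (log2 fold change 4.05, SE 0.16, adjusted p = 1.33e-10), and replicate 1 was the lowest in both groups, as it was for CLU.

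**Figure D5:**
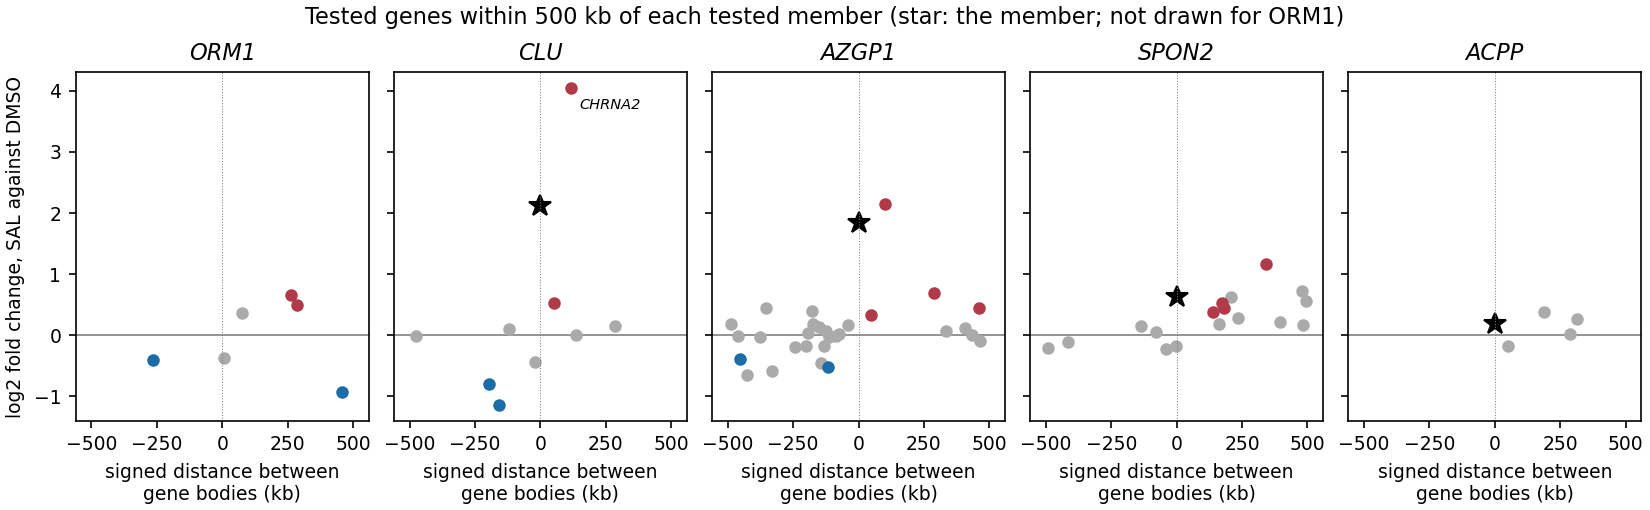
Log2 fold change of SAL against DMSO (y axis) of the tested genes of known position within 500 kb of each tested member. The x axis is the gap between the gene bodies in kb, positive in the direction of transcription of the member. Points are red where higher and blue where lower with an adjusted p under 0.05, grey otherwise, with a star for the member. The star is not drawn for ORM1, which was at 0 in DMSO. CHRNA2 lies above CLU. Near AZGP1 and SPON2 most genes lie closer to 0 than the member, but a few lie above it.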

How the data were processed

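RNA-seq of C4-2 cells was analysed in 3 DMSO and 3 SAL libraries, with groups and replicate numbers from the labels. The authors prepared stranded total RNA libraries, mapped read 1 alone with TopHat2 2.1.0 (hg19) and counted reads per gene symbol with HTSeq 0.11.2 without regard to strand (gencode v19). The deposited values are raw counts, not normalized. LNCaP libraries were not analysed here. From the counts, 523 rRNA symbols were removed and low genes were filtered with filterByExpr (minimum count 10), which left 16835 of 55765 symbols. The groups were compared in edgeR 4.0.16 (quasi-likelihood test, TMM scaling), with the replicate number as a block and Benjamini-Hochberg adjustment over all tested genes (threshold 0.05), in R 4.3.3. With this block the p-values measure how far the differences between SAL and DMSO disagree between pairs. The spread between replicate numbers is left out of them. The study describes the cultures as independent experiments. The SE follows from the F statistic, as the size of the log2 fold change over its root. The deviations of same-numbered libraries from their group means correlated over 16835 genes (r = 0.89, 0.86 and 0.74), and the study used a paired test, so the numbers were taken as pairs. The scripts were tested on simulated data. Between 6931042 and 9776990 counts per library remained, so that 3 counts, the floor for a gene at 0, are 0.329 to 0.410 CPM. Intervals and floors cover counting error only.

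The 10 members and all gene lists were chosen with earlier results of these data known. Named genes were, from each of the 4 lists, the 4 called genes of the largest change in size and 1 direction in all 3 pairs, the regulators NR3C1, CEBPB, IL6R and STAT3 (some genes of the lists are not reported here), the neighbours of the members, and the 2 genes most correlated with each member of at least 5 CPM. Other genes were named outside this rule, among them IL1A, IL1B, CP, CFB, DPP4, F13A1 and CHRNA2. Positions and mRNA lengths come from GRCh37 with GENCODE v44 lifted to it, newer than the annotation of the authors. Upstream sequences come from RefSeq GRCh38.p14 and no coordinates were converted. Alternatives were DESeq2 1.42.0, its size factors in edgeR, a fit without the block, other filters (none, or a minimum of 10 counts throughout), rRNA genes retained, and leaving out 1 replicate number at a time.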

Additional observations from a re-analysis of the deposited data

How the results depend on the processing

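The call count of all genes, 3508, was 2240 with DESeq2 and ranged from 1233 (without replicate 3) to 4398 (without replicate 1) when a number was left out. Members past the threshold were 3 to 5 in every alternative with the block, ranging from 4 to 5 when a number was left out, from which nothing is read. Left-out numbers gave 1 to 2 acute-phase genes (2 with all libraries), 5 to 9 secretion genes (9), 3 to 11 signalling genes (9), 4 to 7 relatives and partners (7) and 1 to 8 neighbours (6), and DESeq2 gave 3 neighbours.

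Without the replicate block, that is without the pairing, edgeR called 21 genes, and 0 members, 0 acute-phase, 0 secretion, 0 signalling, 0 relative and 0 neighbour genes. At an unadjusted p under 0.05 these were 654 of all genes, 3 members, 1 acute-phase, 2 secretion, 2 signalling, 1 relative and 0 neighbour genes. The log2 fold changes without the block kept their signs, as for CLU (2.13), AZGP1 (1.88) and SPON2 (0.66), with SE of 0.48, 0.50 and 0.69.

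The log2 fold change changed sign for ACPP, from -0.13 without replicate 1 to 0.56 without replicate 2. The other tested genes of the lists, regulators and neighbours named kept their signs in each alternative in which they passed the filter. The cause of these shifts was not tested. With 3 pairs and at most 36 reads of ORM1 in a library, the size of the orosomucoid difference is known only as a lower bound. That bound leaves out the counting error of the SAL reads.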
